A study of Mus musculus with 2 samples.

Results

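The USP genes encode ubiquitin-specific proteases, the largest family of enzymes that remove ubiquitin from proteins. Their transcripts were followed between RNA co-precipitated by an anti-FLAG antibody, called FLAG IP below, and the starting RNA (input) of fetal mouse male gonads with a FLAG-tagged Nanos2 transgene. Members were taken by name, as every probe whose gene symbol in the authors' series table begins with Usp and a number. This gave 100 of 41174 probes, for 49 of 20161 named genes. Of these 49 genes, 47 had a probe that the scanner marked as well above background throughout the input or throughout the FLAG IP and were tested among 15266 genes, while Usp32 and Usp50 had no such probe. The symbol also took in Usp6nl, which is named for its likeness to a USP gene and encodes a GTPase-activating protein. It further took in Usp52, now called Pan2, which encodes a subunit of a deadenylase. The family was proposed with the difference between FLAG IP and input already in view, so the values below describe the members and are not a test of the family.

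All arrays held RNA of gonads of male MCH mouse embryos at embryonic day 14.5 with the transgene Tg-Nanos2 enhancer-3xFLAG-Nanos2-3'UTR, which places tagged Nanos2 under a Nanos2 enhancer. The input group had no antibody step, and the FLAG IP group was precipitated with Anti-FLAG M2-Agarose. Each group had 2 one-colour arrays, described in the series' design as biological duplicates. The labels do not say whether the embryos also kept their own Nanos2, nor how many gonads went into a sample, and a precipitate from gonads without the transgene was not analysed here. A value below is the log2 of the processed signal relative to the 75th percentile of its array, so that 0 is a spot as bright as that percentile. A difference is FLAG IP minus input on this scale, with the SE from limma. The number of arrays limits the precision of every difference.

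The FLAG IP arrays were the less even group. Their 75th percentiles were 55.7 intensity units for replicate 1 and 608 for replicate 2, against 1026 and 1038 for the input arrays. Of the 100 USP probes, replicate 1 of the FLAG IP had 67 well above background and replicate 2 had 84, and the input arrays had 84 and 88. The median SD between replicates over the 47 tested USP genes was 0.057 for the input and 0.24 for the FLAG IP. No spot was saturated.

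Ubiquitin is attached to proteins by ligases and marks them for the proteasome, for sorting or for a change in activity, and deubiquitinases take it off again. USP proteins share a catalytic domain with a cysteine in its active site, and many work only when bound to a partner. In the germ line, deubiquitinases are known from work on histone ubiquitin, meiosis and sperm formation. Nanos2 is an RNA-binding protein of male germ cells that recruits deadenylation factors to transcripts.

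Most tested USP genes had a larger share of the signal in the FLAG IP than in the input. Called here means an adjusted p below 0.05 in the limma fit over all genes. Of the 47 genes, 28 were called higher, 3 were called lower and 16 were not called. Over all 15266 genes, 28.0% were called higher and 25.4% lower. The median log2 difference was 0.80 over the USP genes and 0.07 over all genes, and the USP genes ran from -1.82 to 4.27. Both FLAG IP arrays lay above both input arrays for 36 members and below them for 6, which held for 42.0% and 38.2% of all genes. Among the calls, 17 members were higher and 1 was lower by 2-fold or more, against 21.9% and 21.0% of all genes. Leaving out Usp6nl and Usp52 gave 27 higher and 3 lower of 45.

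The count of higher calls rested on the setting and on single arrays. After normexp background correction, 6 members were called higher and 0 lower by limma (0 lower also at an unadjusted p under 0.05), against 1272 and 1398 of all 15266 genes. The lone array of a group was assumed to vary like the other group when an array was left out. The counts were then 7 higher and 1 lower without Input replicate 1 (1431 and 1545 over all genes), and 6 and 1 without Input replicate 2 (1535 and 1727). Leaving out FLAG IP replicate 1 gave 37 and 3 (6204 and 6212 over all genes), and leaving out its replicate 2 gave 34 and 7 (6845 and 5705). With no filter on dim probes, 15 members were called higher and 1 lower, against 3385 and 2794 of 20157 genes. Of the 18 members called at 2-fold or more, Usp2, Usp9y, Usp13 and Usp37 kept their calls in all 13 alternatives, and each of the others lost its call in at least 1. A term for the slide gave the same fit as leaving out Input replicate 1, so the 13 are not all distinct. No followed member lost its call when either FLAG IP array was left out, so these settings do not set members apart.

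**Figure D1:**
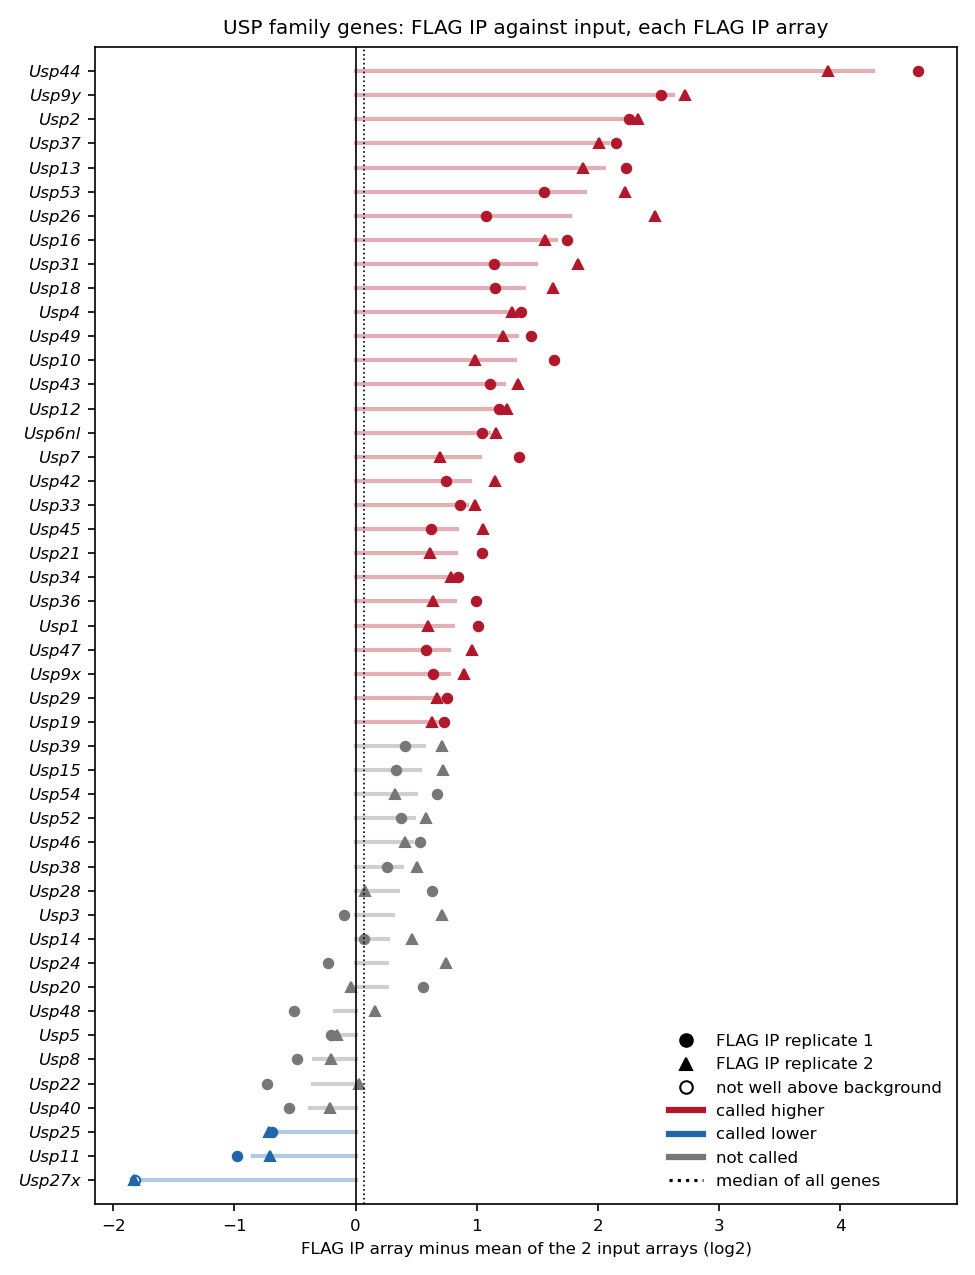
The 47 tested USP genes are ordered by their log2 difference; each circle or triangle is 1 FLAG IP array minus the mean of the 2 input arrays (x axis, log2), bars end at the mean, open symbols were not well above background and the dotted line is the median of all genes. Of the genes, 28 are drawn as called higher and 3 as called lower, with Usp44 at 4.27 and Usp27x at -1.82 at the ends, both of which have an array not well above background.

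The members are given below by role, in small groups that were not compared with each other. Beside each count stand the shares over all genes, 28.0% higher and 25.4% lower. Over the tested USP genes the shares were 59.6% and 6.4%. Among the deubiquitinases that act on histones, 6 of 9 tested genes were called higher, 1 was called lower and 2 were not called. Usp44, which removes ubiquitin from histones and restrains the spindle checkpoint, entered the fit through the FLAG IP arrays only. It read -7.20 and -5.51 on the input arrays and -1.71 and -2.45 on the FLAG IP arrays. It was thus near the bottom of the input range, where only Input replicate 2 was well above background. On both FLAG IP arrays it was well above background. The fitted difference was 4.27 ± 0.67, which rests in part on an input value not well above background and is no exact fold. It was 3.42 without Input replicate 1, the array that did not measure it, and 5.12 without Input replicate 2, and after normexp background correction it was 2.59 and not called. In the authors' deposited table the mean signal of Usp44 was 14.9 intensity units for the input and 64.1 for the FLAG IP. These means cover unlike arrays, with 6.98 and 22.8 units in the input and 17.0 and 111 in the FLAG IP. Before scaling, FLAG IP replicate 1 was thus dimmer than Input replicate 2.

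Usp49, the closest relative of Usp44 and also a histone deubiquitinase, read -3.17 and -3.23 in the input against -1.75 and -1.98 in the FLAG IP, a difference of 1.33 ± 0.18. Usp16, which acts on ubiquitin of histones during mitosis, read 1.58 and 1.48 against 3.27 and 3.09, a difference of 1.65 ± 0.17. On these probes the arrays of each group lay close together for both genes, and the groups were far apart. The second probe of Usp49 stood at 0.38 ± 0.35 and was not called. On that probe FLAG IP replicate 1 was not well above background. Usp7, a regulator of p53 and of its ligase, read 3.61 and 3.47 against 4.89 and 4.24. Its FLAG IP arrays differed by 0.65 from each other, and the difference of 1.02 ± 0.28 lost its call in the fit where each probe stood for itself. Usp21 stood 0.83 higher and Usp36, a nucleolar enzyme, 0.82 higher.

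The other 3 histone enzymes were not called higher. Usp22, the deubiquitinase of the SAGA coactivator, read -0.40 and -0.34 in the input and -1.10 and -0.34 in the FLAG IP, so the groups met at FLAG IP replicate 2. Usp3 had 0.86 and 0.92 in the input and 0.79 and 1.60 in the FLAG IP, which overlap as well, while its second probe stood at 0.48 and was not called. Usp27x, an X-linked relative of Usp22, entered the fit through the input arrays only. It read -2.62 and -2.84 in the input and -4.55 and -4.56 in the FLAG IP, a difference of -1.82 ± 0.17, but FLAG IP replicate 1 was not well above background, so the size of the difference is uncertain. Its second probe stood at -0.45 and was well above background on neither FLAG IP array. After normexp background correction the difference of Usp27x was 0.29 and not called. It also lost its call after quantile normalization, at -3.01, and with the mean of its probes, at -1.13.

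Genes of the DNA damage response and the cell cycle had 6 of 9 members called higher and 1 called lower. Usp37, which stabilises cyclin A on the way into S phase, read 0.44 and 0.58 in the input against 2.66 and 2.52 in the FLAG IP. Usp13, which shares its domain layout with Usp5, read -1.95 and -1.86 against 0.32 and -0.03. Both genes showed a gap between the groups of about the same size, 2.08 ± 0.17 for Usp37 and 2.05 ± 0.20 for Usp13, that was several times the gap between replicates. Usp37 and Usp13 kept their calls under each of the 13 alternatives run. Smaller differences stood at 0.95 for Usp42, a gene known from spermatogenesis, 0.84 for Usp45, which acts in nucleotide excision repair, 0.80 for Usp1, which removes ubiquitin from FANCD2 and PCNA, and 0.77 for Usp47, which acts in base excision repair.

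The remaining members of that group were flat or lower. Usp28, which stabilises Myc, was bright on all arrays, with 3.46 and 3.48 in the input and 4.10 and 3.55 in the FLAG IP, and was not called. Usp48 read 0.46 and 0.56 in the input, and its FLAG IP arrays at -0.00 and 0.67 lay on either side of these. Usp11, an X-linked gene that acts in recombinational repair, read 1.19 and 1.20 in the input against 0.22 and 0.49 in the FLAG IP. All 4 arrays of Usp11 were well above background, and the difference of -0.84 ± 0.18 was called lower.

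The enzymes that serve the whole ubiquitin pool showed little difference. Usp5, which takes apart free ubiquitin chains, read 2.36 and 2.31 in the input and 2.13 and 2.18 in the FLAG IP, a difference of -0.18 ± 0.16. Usp14, which trims chains on the proteasome, read -0.00 and -0.04 in the input and 0.05 and 0.45 in the FLAG IP, a difference of 0.27 ± 0.21. Neither was called. The other probes of Usp14 stood at -0.61 and 0.04, so its 3 probes did not lie on the same side.

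Of the members that act at endosomes, the endoplasmic reticulum and the Golgi, 5 were tested, and 3 of these were called higher and 0 lower by limma. Usp10, which binds the stress granule proteins G3bp1 and G3bp2, read 1.67 and 1.64 in the input and 3.29 and 2.64 in the FLAG IP, a difference of 1.31 ± 0.28. Usp33 stood 0.92 higher and Usp19, which is anchored in the endoplasmic reticulum, 0.68 higher, the smallest difference among the higher calls. Usp20, a close relative of Usp33, read 2.78 on both input arrays and 3.34 and 2.75 in the FLAG IP, so its groups overlapped. Usp8, which sorts receptors at endosomes, stood at -0.34 ± 0.19 and was not called. Usp32 read -6.10 and -6.06 in the input and -4.79 and -5.59 in the FLAG IP, with 1 array of each group well above background, and was not tested.

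Signalling enzymes were the largest group, with 8 of 14 called higher, 1 called lower and 5 not called. Usp2, which acts on cyclin D1 and on clock proteins and is abundant in testis, read -0.92 and -1.14 in the input and 1.23 and 1.30 in the FLAG IP. Its replicates were close in both groups, and the difference of 2.29 ± 0.17, or 4.90-fold, kept its call under each of the 13 alternatives run. Usp31, which acts on the NF-kB pathway, read -0.51 and -0.38 against 0.70 and 1.39, a difference of 1.49 ± 0.29. Usp18, which removes the ubiquitin-like protein ISG15, read -3.06 and -3.33 against -2.04 and -1.56, a difference of 1.39 ± 0.25.

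Usp4, which acts in TGF-beta signalling, read 2.40 and 2.32 in the input against 3.73 and 3.65 in the FLAG IP. Usp12, which is activated by Wdr48, read 1.52 and 1.43 against 2.66 and 2.73. On these bright probes the replicates differed by less than 0.1 in each group, and the differences were 1.33 ± 0.16 and 1.22 ± 0.16. The second probe of Usp4 was less even, with 3.94 and 3.20 on the FLAG IP arrays and a difference of 1.15 ± 0.31. After normexp background correction the differences of Usp4 and Usp12 were 0.97 and 1.19 and not called. Usp43 read -3.27 and -3.07 against -2.07 and -1.84, a difference of 1.22 ± 0.19. Usp34, which acts on axin in Wnt signalling, stood 0.82 higher and Usp9x 0.77 higher.

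Usp25 was the signalling enzyme called lower. It read -0.01 and -0.09 in the input and -0.73 and -0.76 in the FLAG IP, a difference of -0.70 ± 0.16, and its second probe was also called lower at -1.53. The signalling members that were not called stood at 0.53 for Usp15, 0.47 for Usp46, 0.38 for Usp38, 0.26 for Usp24 and -0.38 for Usp40. Both FLAG IP arrays of Usp15, Usp46 and Usp38 still lay above both input arrays, those of Usp40 lay below them, and those of Usp24 overlapped with the input. These values are from the brightest probe of each gene. Usp15 had 5 tested probes, and 2 of its dimmer probes, at 0.80 and 1.89, were called higher where each probe stood for itself.

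Of the members grouped here for their ties to the germ line, Usp9y, Usp26 and Usp29 were tested and called higher. The X-linked genes Usp11 and Usp27x, described above, were called lower, while the X-linked genes Usp9x and Usp26 were called higher. Usp9y, the Y-linked copy of Usp9x, read -4.27 and -3.92 in the input and -1.58 and -1.38 in the FLAG IP. The difference of 2.62 ± 0.21, or 6.14-fold, kept its call under each of the 13 alternatives run. Whether its probe also reads the similar Usp9x transcript was not tested. Usp26, an X-linked gene known from testis, read -2.28 and -2.56 against -1.34 and 0.05, and its FLAG IP arrays differed by 1.39, the widest gap among the members. Its difference of 1.77 ± 0.52 was the call closest to the threshold. The call was lost in 6 of 13 alternatives: quantile normalization, median centring, no filter on dim probes, slide as a term, and without either input array. Slide as a term is the same fit as without Input replicate 1. The difference was 2.47 without FLAG IP replicate 1 and 1.08 without FLAG IP replicate 2. Just beyond it lay Usp39, with 0.12 on both input arrays and 0.53 and 0.83 in the FLAG IP, which was not called.

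Usp29, a gene expressed from the paternal copy in many tissues, read -2.18 and -2.32 in the input and -1.50 and -1.58 in the FLAG IP, a difference of 0.71 ± 0.16. Its second probe stood at -0.90 and was well above background on both input arrays and on FLAG IP replicate 2, but not on FLAG IP replicate 1. Usp50 was well above background on no array, with -8.32 and -8.23 in the input and -3.25 and -6.21 in the FLAG IP, and was not tested.

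The members long classed as lacking enzyme activity were split. Usp53, a protein of cell junctions, read 0.12 and -0.09 in the input and 1.57 and 2.24 in the FLAG IP, a difference of 1.89 ± 0.29, and its second probe stood at 1.58. Usp54, its relative, stood at 0.50 ± 0.20 and Usp39, a splicing factor, at 0.56 ± 0.19, and neither was called. Of Usp6nl and Usp52, which the symbol also took in, Usp6nl read -1.61 and -1.63 against -0.57 and -0.46, a difference of 1.10 ± 0.16. Usp52 (Pan2) stood at 0.48 ± 0.17 and was not called, while its second, dimmer probe was called higher at 1.55.

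**Figure D2:**
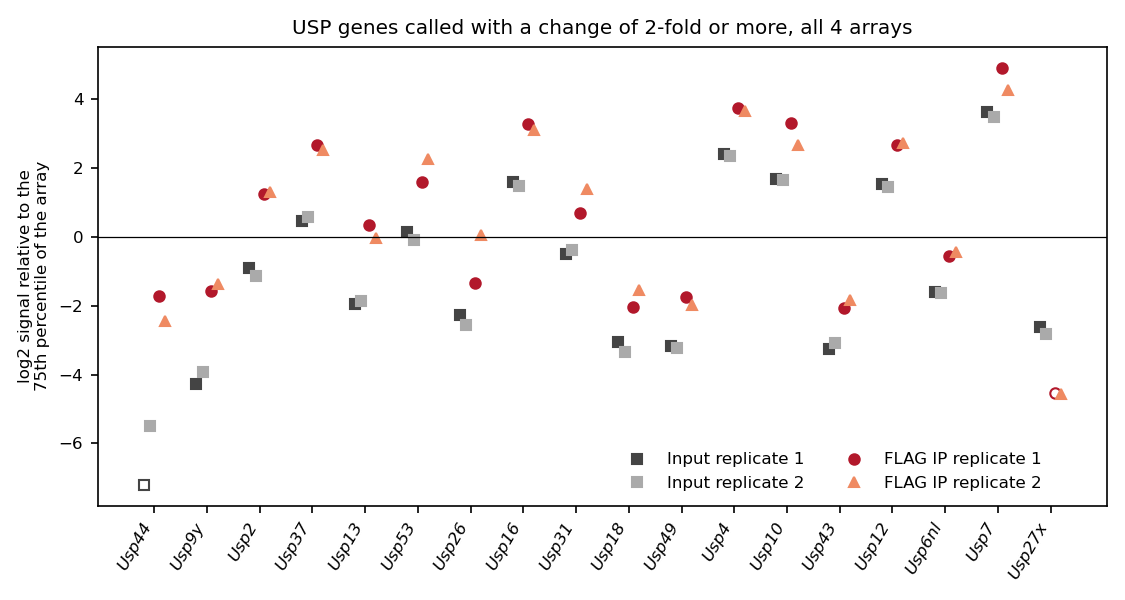
Signals of the 18 USP genes called with a difference of 2-fold or more are plotted for each of the 4 arrays (y axis, log2 relative to the 75th percentile of the array); squares are input, circles and triangles FLAG IP, and open symbols were not well above background. For 17 genes both FLAG IP arrays sit above both input arrays, and for Usp27x they sit below; Usp44 and Usp27x each have an open symbol.

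Several members had more than 1 probe, which gave a second reading within the same arrays. Of the 100 probes, 85 were tested, and 39 of these were called higher and 5 lower when every probe stood for itself, against 23.2% and 22.4% of all probes. In that fit Usp7, Usp21 and Usp26 were no longer called by their brightest probe. The second probe of Usp26 was called higher in the same fit at 2.09, but was not well above background on FLAG IP replicate 1. Of 27 genes with several tested probes, 9 had every probe called higher: Usp2, Usp4, Usp19, Usp31, Usp36, Usp37, Usp42, Usp45 and Usp53. For Usp37 the 3 probes stood at 1.39, 1.84 and 2.08, and for Usp2 the 2 probes stood at 2.29 and 2.91.

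In 8 genes the probes lay on both sides of 0, and in 0 genes were probes called in opposite directions. The probe of Usp34 with the highest mean signal stood at 0.82 and its other probe at -1.06, and for Usp46 the values were 0.47 and -1.38, of which the second was called lower. Usp29, Usp9x, Usp24, Usp38, Usp33 and Usp14 were the other 6. Of the 38 probes beside the brightest of their gene, 21 were well above background on both FLAG IP arrays, and 20 of these lay on the side of the brightest probe. Of the 17 that were not, 10 did. A dim probe on the FLAG IP arrays thus went with disagreement between probes, and its part in the result was not tested. Of the 15 probes that did not enter, 13 were designed on clone records of the AK series, which supplied 28 of the 100 probes.

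**Figure D3:**
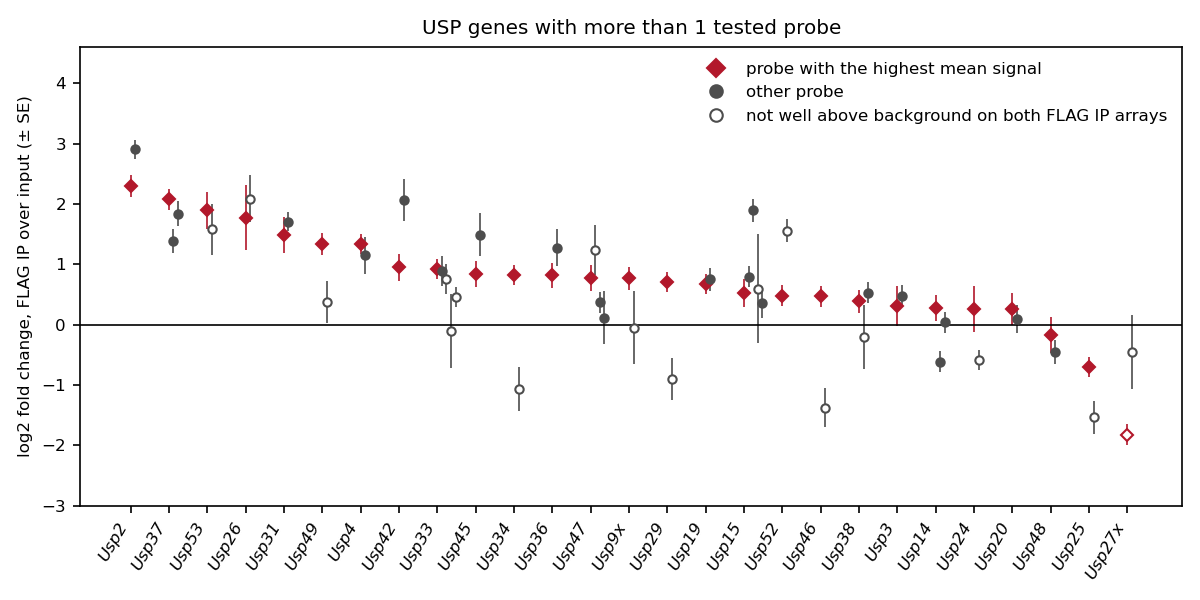
Each tested probe of the 27 USP genes with several probes is drawn with its log2 fold change (y axis, FLAG IP over input) and SE; diamonds are the probe with the highest mean signal, circles the others, and open symbols were not well above background on both FLAG IP arrays. All probes of Usp2 and Usp37 lie above 1, while the probes of Usp34 and Usp46 lie on both sides of 0.

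Related members were also set beside each other. In 16 pairs of related USP genes, chosen by their known kinship, 9 differed by 1 or more on the log2 scale and 4 lay on opposite sides of 0. Pairs of unrelated genes were not counted, so these counts do not show whether kinship matters. Usp11 and Usp37 each stand in more than 1 pair. Usp13 exceeded Usp5 by 2.43 and 2.03 on FLAG IP replicates 1 and 2. Usp4 exceeded Usp11 by 2.17 in the mean, and Usp15, the third gene of that branch, exceeded Usp11 by 1.32 and 1.43. The values for both FLAG IP arrays subtract the same mean of the input arrays and so are not independent. Usp9y exceeded Usp9x by 1.88 and 1.83, Usp44 exceeded Usp49 by 3.20 and 2.69, and Usp22 exceeded Usp27x by 1.09 and 1.85. Usp44 was not well above background on Input replicate 1, nor Usp27x on FLAG IP replicate 1, so the sizes of their gaps are uncertain. Usp29 minus Usp37, which belong to the same branch, was -1.40 and -1.34, whereas Usp26, also of that branch, was below Usp37 on the first array and above it on the second. Usp7 and Usp47, Usp31 and Usp43, and Usp36 and Usp42 differed by 0.27 or less in the mean. These differences are between fold changes and not between levels, and they were not tested.

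**Figure D4:**
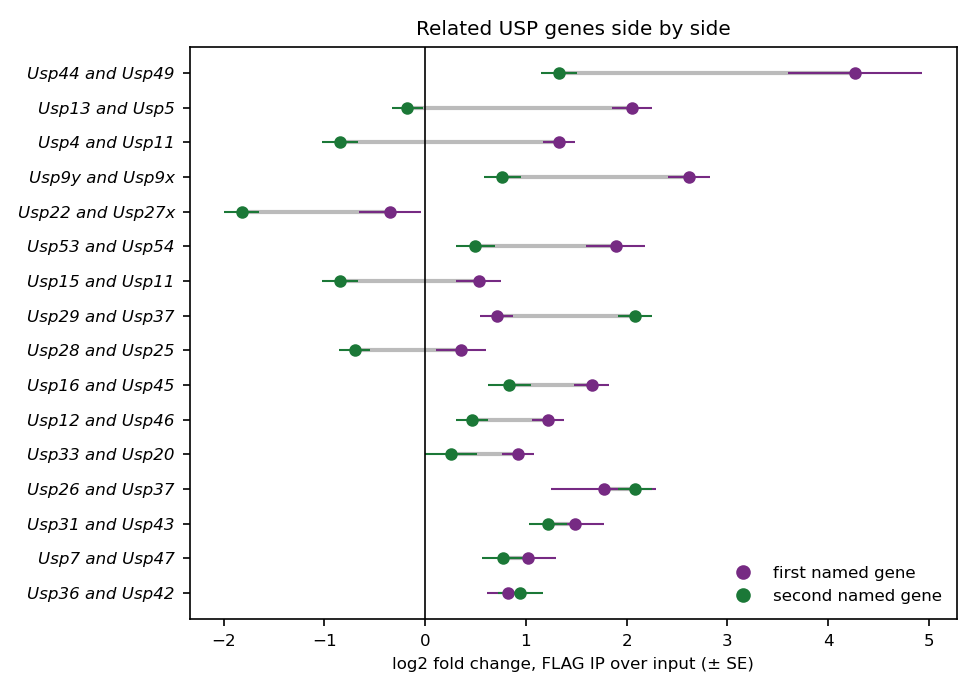
Log2 fold changes (x axis, FLAG IP over input, ± SE) of 16 pairs of related USP genes are joined by a line, ordered by the size of the gap. The gap is 2.94 for Usp44 and Usp49 at the top and -0.13 for Usp36 minus Usp42 at the bottom. Usp44 and Usp27x each have an array not well above background, so the sizes of their gaps are uncertain.

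Other parts of the deubiquitinase system were read from the same fit. Of 53 tested genes of other deubiquitinase families and USP partners, 25 rose and 9 fell by limma, with a median of 0.57. The shares over all genes, 28.0% higher and 25.4% lower with a median of 0.07, stand beside these and the following counts, and many of these lists hold few genes. Of 14 tested genes of the OTU family, 11 rose and 1 fell, with a median of 1.22. Zranb1, which cuts atypical ubiquitin chains, rose by 2.97 ± 0.27 (limma adjusted p = 0.00400), and Otub1, an inhibitor of ubiquitin-conjugating enzymes, fell by 1.70 ± 0.16 (limma adjusted p = 0.00412). Of the 2 tested genes with a USP fold and no number, Cyld rose by 1.71 and Uspl1, which acts on SUMO, by 2.12.

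The list of the JAMM family had the opposite balance, with 1 gene higher and 5 lower of 11 and a median of -0.31. This list is not one of active enzymes only. It also holds Psmd7, Cops6, Eif3f and Eif3h, which lack the metal-binding motif of the proteases, and Cops6 and Eif3h are among the lower calls. Mysm1, a histone deubiquitinase, rose by 2.47 ± 0.19, while Mpnd fell by 2.11 ± 0.17 and Cops6, a subunit of the COP9 signalosome, by 2.08 ± 0.19. Of the UCH genes, 2 of 5 rose and Uchl1, an abundant ubiquitin hydrolase of neurons and spermatogonia, fell by 1.37 ± 0.22. Of the Josephin genes 2 of 3 rose, and of the MINDY and ZUP genes 2 of 5. Of the 4 genes for ubiquitin and its activating enzymes that are reported, 2 fell and 1 rose. Rps27a, which encodes ubiquitin fused to a ribosomal protein, fell by 1.89, Ubb, which encodes a chain of ubiquitin repeats, fell by 0.80, and Uba6 rose by 1.47.

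Of the 13 tested genes listed as partners of USP enzymes, 5 rose and 2 fell, with a median of 0.05 that lay close to that of all genes. Wdr20 and Wdr48, which activate Usp12 and Usp46, rose by 2.41 ± 0.16 and 1.21 ± 0.16. Their enzymes stood at 1.22 for Usp12 and at an uncalled 0.47 for Usp46. Sart3, a partner of Usp4 and Usp15, rose by 0.68, and G3bp2, a partner of Usp10, by 1.31. In the SAGA module of Usp22, Atxn7 rose by 0.91, Eny2 fell by 0.75, and Atxn7l3 stood at -0.35 without a call. Adrm1, a ubiquitin receptor of the proteasome, fell by 0.88. It is known as a partner of the UCH enzyme Uchl5 rather than of a USP enzyme, so this lower call does not belong to a USP partner.

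**Figure D5:**
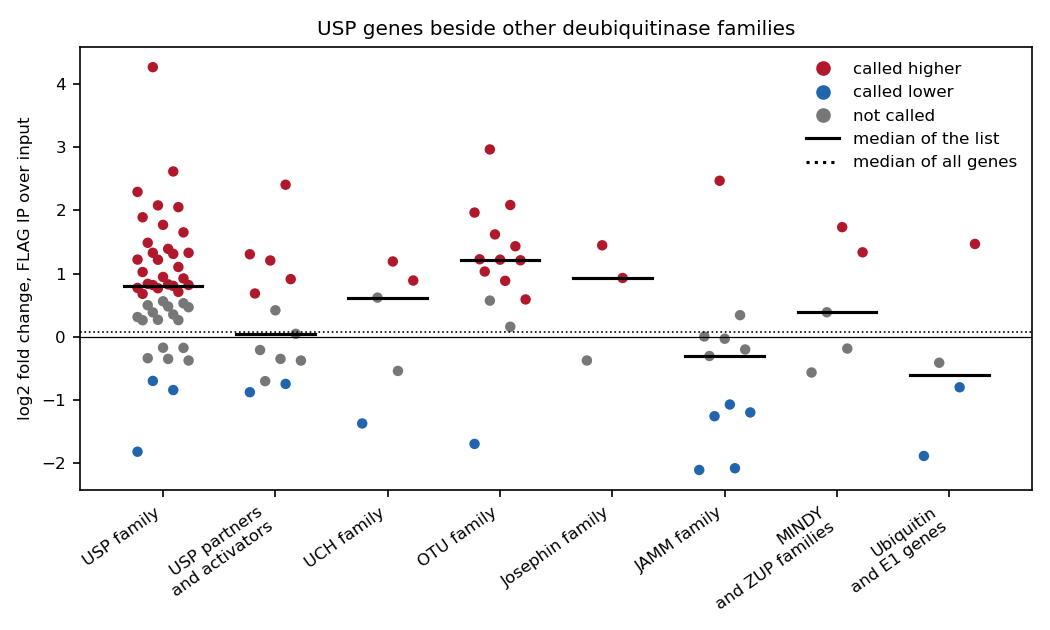
Each point is the log2 fold change (y axis, FLAG IP over input) of 1 tested gene in the USP family and in 7 lists of related genes; solid bars are medians and the dotted line is the median of all genes. The median is 0.80 for the USP family, 1.22 for the OTU family, -0.31 for the JAMM family and -0.61 for the 4 ubiquitin and E1 genes.

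Cell type markers moved between the same groups. Of 25 tested markers of Sertoli, Leydig, endothelial, macrophage and erythroid cells, 22 fell and 1 rose, and of 10 germ cell markers 4 rose and 1 fell. The summed signal of the 8 Sertoli markers, in multiples of the 75th percentile of the array, was 101 to 102 in the input and 18.2 to 22.3 in the FLAG IP. That of the 5 Leydig markers was 126 to 139 and 19.3 to 20.01, that of the 5 erythroid markers 163 to 173 and 14.7 to 18.6, and that of the 10 germ cell markers 89.2 to 94.5 and 162 to 182. A sum is weighted to the brightest genes of its list. The germ cell markers that rose were Ddx4, Dazl, Tdrd1 and Nanos2, of which Nanos2 is also the gene carried by the transgene. Dnd1 stood at -0.78 and was called lower, and 5 germ cell markers were not called. All 35 tested markers were well above background on both input arrays. Tie1, Cd68, Adgre1, Hba-x and Hbb-bh1, which fell, were so on only 1 FLAG IP array, and the sizes of their falls are uncertain. The part of the markers in the USP values was not tested. The input is RNA of whole gonads, in which the number of cells of a type and the RNA per cell cannot be told apart.

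The authors' deposited table gave ratios of FLAG IP to input on the same side of 1 as the differences above for 47 of 47 tested members. That table was made from the same arrays, so it is not a second measurement.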

How the data were processed

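Per the file headers, each scanner file holds the background-corrected processed signal of 1 Agilent array as an intensity on a linear scale, with median signals, local backgrounds and other marks for spots well above background, saturated or outlying; Agilent Feature Extraction 9.5 is named in the submitters' processing notes. The authors' deposited series table gives the mean intensity of a group and a ratio to input, used for gene symbols and 1 comparison; its p-values were not used.

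Outlier spots were set to missing, log2 signals were centred on each array's 75th percentile, and spots of a probe were averaged. A probe entered if well above background on both arrays of a group, and the brightest probe stood for its gene. The groups were compared in limma 3.58.1 under R 4.3.3 (lmFit, eBayes, 2 residual degrees of freedom), with Benjamini-Hochberg adjustment over 15266 genes; the steps were tested on simulated data. Gene names came from the RefSeq table of assembly GRCm38.p6 through gene ID (31004 probes) or symbol (464); no coordinates are given because the array headers use another build. Values are given on each array for members called with a difference of 2-fold or more, for those near the call, and for examples among the rest. The list of ubiquitin and E1 genes leaves out 1 gene that is not reported here. The members and lists were chosen with earlier results of these data known. P-values measure the spread between these arrays.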

Additional observations from a re-analysis of the deposited data

How the results depend on the processing

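For the USP genes, normexp background correction gave 6 called higher and 0 lower with a median of 0.57, no filter on dim probes 15 and 1, and slide as a term 7 and 1, the same fit as without Input replicate 1, which lay alone on its slide. Without 1 array in turn, the USP counts ran from 6 to 37 higher and 1 to 7 lower, and the median from 0.72 to 0.79; median centring gave 0.67. Relative to the median of all genes, the USP median was 0.73 in the reported setting, 0.73 with median centring, 0.80 after quantile normalization, 0.26 with no filter and 0.19 after normexp. Of 18 single members followed, 11 lost their call after normexp and Usp27x turned to 0.29.

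Over all genes, 4275 were called higher and 3883 lower. The counts were 1272 and 1398 after normexp, 1431 and 1545 with slide as a term, and 1431 to 6845 and 1545 to 6212 without 1 array in turn. For the other deubiquitinase and partner genes they were 8 and 4 after normexp, 8 and 2 with slide, 5 lower with no filter, and 8 to 30 and 2 to 17 without 1 array. Their median was 0.46 after normexp, 0.44 with median centring, 0.39 with the mean of a gene's probes and 0.44 to 0.58 without 1 array. The cause of these shifts was not tested. Replicate numbers are shared by the groups, but same-numbered arrays deviated together only with r = 0.050 across genes; with the replicate block, 23 USP genes were called higher and 2 lower. Signal over background on FLAG IP replicate 1 limits the dim probes.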
